A study of Mus musculus with 36 samples.

Results

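After a myocardial infarction the surviving heart muscle beside the scar, the border zone, changes which stretches of its chromatin are open. The loci described here are 135 places in the mouse genome where the border zone library of day 4 after surgery held more ATAC-seq tags than the sham library of that day, while the libraries of days 7 and 14 did not show such an excess. They were found by joining the regions of the 9 deposited lists that overlapped by 1 bp or more, which gave 60847 loci, of which 19733 were listed on all 3 days. For each locus and day the border zone tags were divided by the sham tags and then by the median of that ratio over the day's loci, and this value is called R. The 135 member loci were selected on R at least 75% above 1 on day 4, called the day 4 threshold below, and R below 1.3 on days 7 and 14. All tags of all 3 days entered this choice, so R and the tag levels of the members are described below without tests. Positions are in mm9, as in the deposited lists, and are given as the first and last base.

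The 6 ATAC-seq libraries came from left ventricles of FVB/N mice, with 1 sham and 1 border zone library on each day. The first day is 4 in the labels of these libraries, as used here, whereas the design text of the series names day 3. The mice of day 4 carried Cdh5-Cre, which is active in endothelial cells, and Sun1-sfGFP, which tags the nuclear envelope. For their nuclei the protocol lists a sort for the tag and a pulldown of PCM1, a protein of the cardiomyocyte nuclear surface, to enrich cardiomyocytes. A tag driven by an endothelial Cre and a cardiomyocyte pulldown select different cells, and the labels do not say how the steps were combined, so the cell type behind the day 4 values is uncertain. Reads were paired, 76 bp each. The mice of days 7 and 14 carried Myh6-MerCreMer, a cardiomyocyte Cre that tamoxifen switches on, with the nTnG reporter, and the protocol also lists the Sun1/sfGFP allele. They received tamoxifen at 20 mg/kg, and 50000 labelled nuclei were sorted per sample. The aligner also differed, Bowtie2 on day 4 and BWA later. Tamoxifen is named for the ATAC-seq libraries of days 7 and 14 only. Genotype, tamoxifen, isolation of nuclei and aligner therefore change together with the step from day 4 to the later days. Their parts cannot be told apart. Within a day, sham and border zone were treated alike as far as the labels say. Not given in the sources used here: whether a library holds 1 animal or a pool. Whether marker genes of cardiomyocytes or endothelial cells are open in these libraries was not analysed here, since no gene positions in mm9 were at hand. The series' 30 RNA-seq samples were left out, not analysed here.

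ATAC-seq uses a transposase that inserts sequencing adapters where DNA is free of nucleosomes, so the number of tags in a stretch of DNA measures how open it is in the nuclei sampled. Open stretches away from gene starts are often enhancers, which bind transcription factors and switch on with the state of the cell. In the days after an infarction, cardiomyocytes of the border zone are known to turn on stress and fetal genes and to lower genes of the mature contractile and metabolic programme, while inflammatory and other non-muscle cells enter the tissue. The cardiomyocyte pulldown and the sort for nuclei labelled through the cardiomyocyte Cre are meant to leave such cells out. A sort for the tag driven by the endothelial Cre would instead select non-muscle nuclei. For the earliest libraries it is therefore uncertain whether these steps left non-muscle cells out. In the pooled nuclei of a library, a change within 1 cell type and a change in the mix of cells that passed these steps give the same tags and cannot be told apart.

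The listed regions held 5907384 sham against 5470054 border zone tags on day 4, 3858892 against 2744624 on day 7, then 13936013 against 10397308 on day 14. These are the tags inside the lists, not the depth of the libraries, which is unknown here. The intervals below are exact Clopper-Pearson 95% intervals of the border zone share of the tags, turned into R. They cover counting error only and hold nothing of the spread between animals. A p-value could not be given with 1 library per condition and day.

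Among the loci listed on all 3 days, a gain on day 4 was uncommon, and a gain confined by the rule to day 4 was a small part of it. Day 4 listed 44885 loci in all. Those not listed on both later days are left out by the rule, whatever their gain on day 4. Of the 19733 loci listed on all 3 days, 832 had R at or above the day 4 threshold, which is 4.22%, and these are called the loci gained on day 4. Of these 832 loci, 522 also had R of at least 1.3 on days 7 and 14, 120 on day 7 and not on day 14, and 55 on day 14 and not on day 7. The remaining 135 are the members, 16.2% of the loci gained on day 4. Over all loci listed on 3 days, 77.4% had R below 1.3 on both later days, 81.4% on day 7 and 87.1% on day 14. These shares are the rule's own contrasts and are given as background.

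The members had a median R of 2.04 on day 4, 0.983 on day 7 and 1.04 on day 14. On day 4 the values ran from the threshold to 6.77, with 55 members below 2, 70 from 2 up to 3, and 10 at 3 or more. Most members thus had R below 3 on day 4, and a few stood far above the threshold. On day 7 the values ran from 0.293 and on day 14 from 0.609 up to the limit of 1.3. The loci listed on all 3 days had median R of 0.941, 0.824 and 0.904 on days 4, 7 and 14, because the day's median is taken over all loci of a day and the loci shared by the days lie below it. On day 7 a member at R of 1 was therefore above the typical shared locus.

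**Figure D1:**
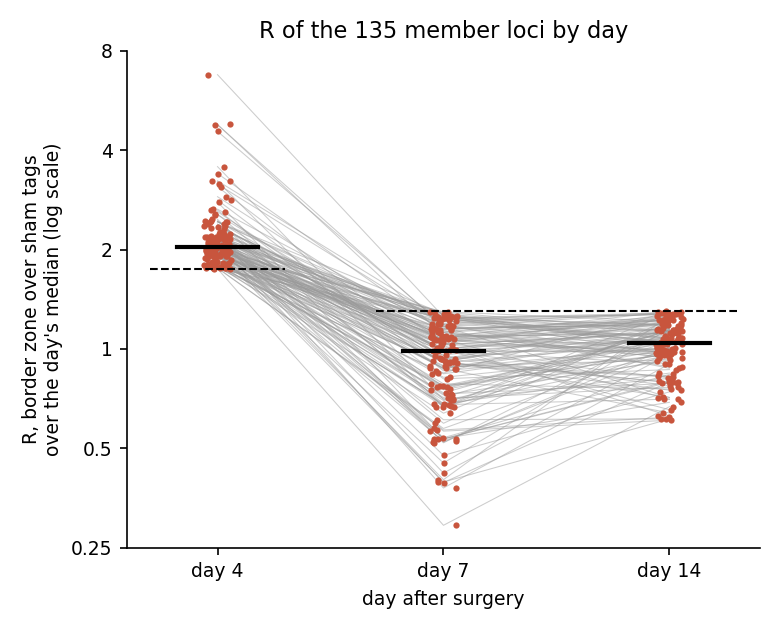
R of each of the 135 member loci on days 4, 7 and 14 on a log scale, with the points of a locus joined by a grey line. Black bars mark the medians of 2.04, 0.983 and 1.04, and dashed lines mark the threshold of day 4, 75% above 1, and the limit of 1.3 on the later days.

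The members with the firmest gain, ranked by the lower end of the interval of R on day 4, show what the pattern looks like in tags. The locus of rank 1 is chr17:50134251-50135250, a 1000 bp stretch listed with the same bases on every day. It held 35 sham against 136 border zone tags on day 4, 59 against 48 on day 7, then 273 against 206 on day 14. R was 4.56 (3.13 to 6.81) on day 4, 1.18 (0.79 to 1.76) on day 7 and 1.02 (0.85 to 1.23) on day 14, so the interval of day 4 lay wholly above those of the later days.

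The locus of rank 2 is chr12:16857251-16858250. It held 26 sham against 106 border zone tags on day 4, 70 against 53 on day 7, then 243 against 220 on day 14. R was 4.78 (3.09 to 7.66), 1.1 (0.75 to 1.59) and 1.22 (1.01 to 1.47) on days 4, 7 and 14. Here the interval of day 14 stayed just above 1, a small excess in the border zone below the rule's limit.

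The highest R of all members, 6.77 on day 4, belongs to chr7:117858751-117859750, the locus of rank 3. It rests on 7 sham and 43 border zone tags, and the interval ran from 3.02 to 17.8. On day 7 it held 44 sham and 38 border zone tags and on day 14 152 and 154, with R of 1.25 and 1.18. The counts thus leave its size open over a wide range, with a lower end above 3.

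Rank 4, chr8:122527751-122529250, held 68 sham and 190 border zone tags on day 4, with R of 3.23 (2.44 to 4.32). On the later days it held 58 and 49, then 240 and 206 tags, with R of 1.23 and 1.16. Rank 5, chr7:123667751-123668750, held 58 against 159 tags on day 4, 87 against 40 on day 7, then 470 against 365 on day 14. Its R of 3.22 on day 4 was followed by 0.67 (0.45 to 0.98) on day 7, where the interval lay below 1, and by 1.05 on day 14. Rank 6, chr4:57851751-57852750, was sparse on day 4, with 9 sham and 39 border zone tags and R of 4.78 (2.28 to 11.2). On day 14 it held 347 sham and 183 border zone tags, and R of 0.71 (0.59 to 0.85) was below 1.

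Ranks 7 to 10 had R below 3 on day 4. At chr4:141422251-141424250 the tags were 97 sham and 239 border zone on day 4, and R was 2.89 (2.27 to 3.70) against 1.05 on day 7 and 1.25 on day 14. At chr5:125964751-125969250 they were 156 and 348, and R was 2.56 (2.12 to 3.12) against 0.67 and 1.14. This locus covered 4500 bp on day 4 and 1000 bp on each later day, so its R compares different stretches of DNA. At chr19:45791751-45793750 the tags were 71 and 171, and R went from 2.79 to 0.53 and 0.80, with both later intervals below 1. At chr13:101350251-101352750 the tags were 249 and 521, and R was 2.44 (2.10 to 2.85), then 0.68 (0.47 to 0.97) and 0.85 (0.72 to 0.99).

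**Figure D2:**
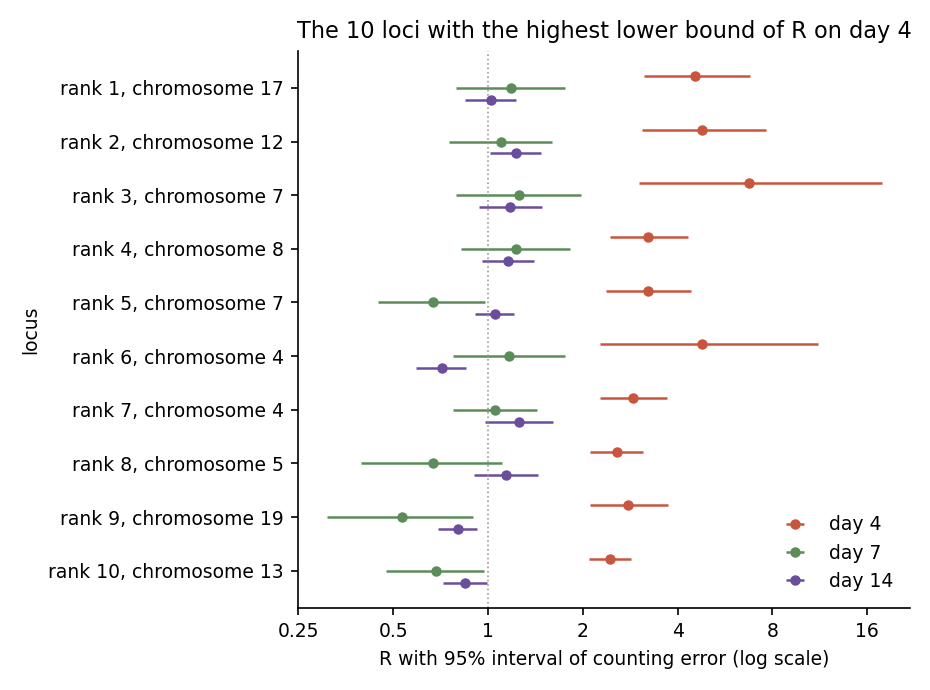
R on days 4, 7 and 14 with its 95% interval of counting error, on a log scale, for the 10 members with the highest lower end of the interval on day 4. All 10 intervals of day 4 lie above 2, and the later intervals include 1, except on day 14 at rank 2, just above 1, and on at least 1 later day at ranks 5, 6, 9 and 10, below 1.

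Counting error leaves most single members less certain than these. The interval of R on day 4 lay above 1 in all 135 members, reached 1.3 or more at its lower end in 112, and cleared the day 4 threshold in 28. On day 7 the upper end was below 1.3 in 51 members, and on day 14 in 76. The interval of day 4 lay above those of both later days in 79 members and overlapped at least 1 of them in 56. These intervals use the same tags that chose the members and are not corrected for that choice. The choice favours a high R on day 4 and a low R later, and such counts were not made over other loci. The separation of the intervals is therefore not read as support for the pattern. In 8 members every condition of the rule held at the limit of the interval. The later limit also depends on the centre used. With each day's median taken over the shared loci alone, 59 of the 135 members left the set, 46 of them with R of 1.3 or more on day 7 and 32 on day 14, and 0 through day 4. Ranks 1 to 4, 6 and 7 were among them, with R on day 7 of 1.43 at rank 1 and 1.33 at rank 2, while ranks 5, 8, 9 and 10 stayed.

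The members with the most tags differ from those with the highest R. The widest member, chr13:11631751-11645750, spans 14 kb and held 856 sham against 1512 border zone tags on day 4, 639 against 236 on day 7, then 2258 against 1166 on day 14. Its R went from 2.0 (1.84 to 2.18) on day 4 to 0.54 (0.46 to 0.62) on day 7 and 0.69 (0.64 to 0.74) on day 14, an excess in the border zone on day 4 and in the sham library later. Of the 14 kb listed on day 4, 42.9% were listed on day 7 and 50% on day 14, so its R compares partly different DNA. The member chr8:15137251-15143250 held 472 and 851, 217 and 150, and 362 and 304 tags, with R of 2.04 (1.82 to 2.29), 1.0 and 1.13. The lists covered 6 kb of it on day 4, 2.5 kb on day 7 and 1.5 kb on day 14. The member chr11:62838751-62841250 held 140 and 270, 103 and 88, and 636 and 605 tags, with R of 2.23 (1.81 to 2.75), 1.24 and 1.29, just under the limit.

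A pair of the members richest in tags was shallow on day 4 and deep later, although the listed stretches differed between the days. At chr9:44287251-44289250 the day 4 libraries held 19 sham and 38 border zone tags, against 414 and 334 on day 7 and 1194 and 1135 on day 14. Its R of 2.20 on day 4 had an interval from 1.24 to 4.05, and its later values were 1.17 and 1.28. The lists covered 1 kb of this locus on day 4, 1.5 kb on day 7 and 2 kb on day 14. Per listed kb it held 19 and 38, 276 and 223, then 597 and 567.5 tags. At chr10:126342251-126344250 the tags were 28 and 58, then 227 and 200, then 827 and 683, with R of 2.43 (1.52 to 3.96), 1.28 and 1.12. The lists covered 1 kb of it on day 4 and 1.5 kb on each later day, and 50% of the day 4 bases were listed on each later day. Per listed kb it held 28 and 58, 151 and 133, then 551 and 455 tags. In 13 of the 135 members the geometric mean level of day 4, with levels as defined in the next paragraph, was at most 1 part in 3 of that of the later days, and in 0 it was at least 3 times as high. The same counts were not made over all loci, so nothing is read from them.

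The members' levels in each library show which side of the day 4 ratio stood apart. Levels are tags per kb of listed DNA, divided by the library's median over the 19733 loci listed on all 3 days, so 1 is the typical locus of that library. The median level of the members was 0.393 in the sham library of day 4, 0.806 in the border zone of day 4, 0.775 and 0.894 in sham and border zone on day 7, and 0.824 and 0.904 on day 14. The day 4 sham library was thus the low one, and the day 4 border zone library was near the 4 later ones. Per member, the sham level of day 4 was the lowest of the 6 in 112 of 135, against a background of 20.7% of all loci. The border zone level of day 4 was the highest of the 6 in 45 of 135, against a background of 14.8%. Both orders use the values that chose the members, and a low sham value on day 4 is what a high R asks for.

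Set against single libraries of the later days, the border zone of day 4 was above and below them about as often as at loci in general. Its level was above that of the border zone of day 7 in 63 members, or 46.7% (background 48.9%), and of day 14 in 55, or 40.7% (background 49%). It was above the sham level of day 7 in 69 members, or 51.1% (background 45.7%), and of day 14 in 62, or 45.9% (background 46.2%). The sham level of day 4 was below that of day 7 in 125 members (background 54.7%) and below that of day 14 in 124 (background 53.1%). The median ratios were 0.949 and 0.971 over all loci, and the members had median ratios of 0.490 and 0.462. The sham tags of day 4 entered the rule, so a low ratio is part of what the rule asks for. The sham libraries of days 7 and 14 differed little from each other at the members, with a median ratio of 1.02. The sham library of day 4 also differs from the later sham libraries in genotype, named tamoxifen treatment, isolation of nuclei and aligner. The part of these differences in its low level was not tested.

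A low sham level on day 4 was not particular to the members. Among the other 697 loci gained on day 4, the sham level of day 4 was the lowest of the 6 in 597, or 85.7%. The 522 loci that kept a gain had median levels of 0.247 in sham against 0.625 in the border zone on day 4, 0.55 against 1.45 on day 7, then 0.505 against 1.02 on day 14. They were lower than the members in all 3 sham libraries, and their border zone levels were higher than the members' on days 7 and 14. The lists also bound these levels. A region without a called difference had at least 31 sham tags on day 7 and 87 on day 14, while a region called higher in the border zone on day 4 could have as few as 2. A locus that is flat on the later days could therefore not be listed there with a very low sham count.

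**Figure D3:**
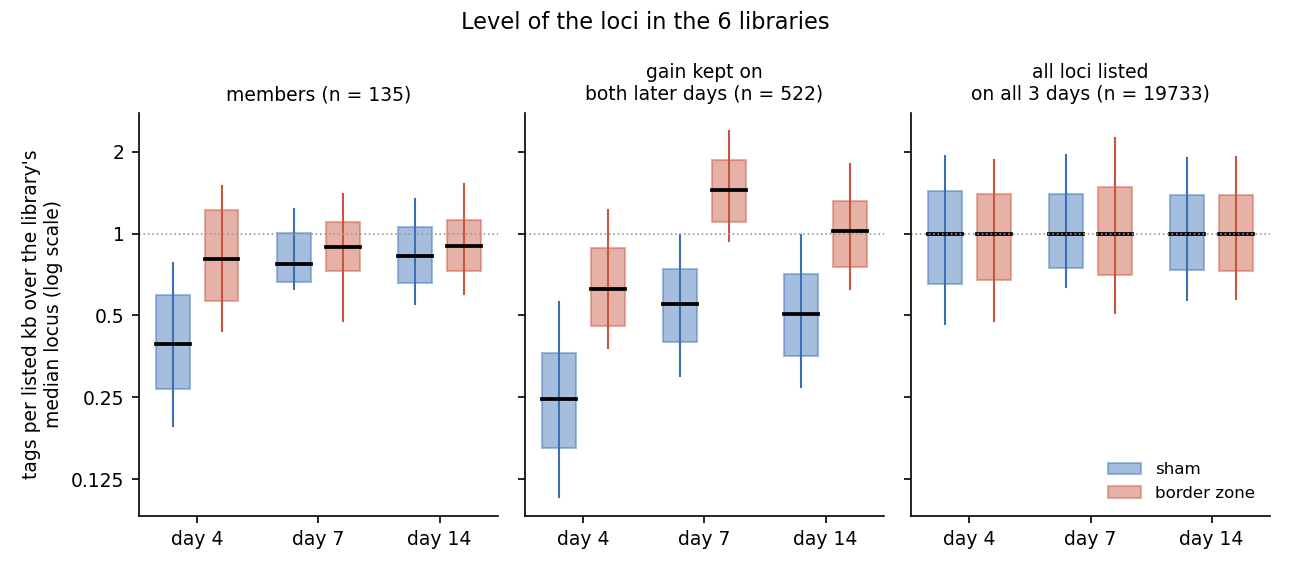
Level in the 6 libraries (tags per listed kb over the library's median locus, log scale) for the 135 members, the 522 loci gained on day 4 with R of at least 1.3 on both later days, and all 19733 loci listed on 3 days. Black bars are medians, boxes the middle quartiles and lines the 10th to 90th percentile of loci; the members' sham level of day 4, at 0.393, is the lowest of their 6 medians.

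The authors' own lists, in which every called region had at least a 75% excess between its listed values, place the members as follows. On day 4, 130 of the 135 members held a region from the list of higher border zone values, against a background of 6.96%, and 0 held one from the list of higher sham values, against 5.1%. These come from the same contrast as the rule. The 5 members without such a region had R of at most 1.79 and at most 47 border zone tags. In 36 members, these 5 among them, a region without a called difference gave part or all of the day 4 tags (background 94.3%).

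On day 7, 0 members held a region called higher in the border zone (background 8.69%), and 23 held one called higher in sham (background 33%). On day 14, 5 members held a region called higher in the border zone (background 7.2%), each beside a region without a call, and 2 held one called higher in sham (background 8.38%). All 135 members held a region without a called difference on day 14 (background 92.2%). The rule itself limits later gains, so nothing is read from the low number of calls in that direction.

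On the later days the members split further. R lay between 0.77, which is 1 over 1.3, and 1.3 on both days in 88 members. It was below 0.77 on day 7 alone in 30 members, on day 14 alone in 8, and on both days in 9. Counted per day, R was below 0.77 in 39 members on day 7, or 28.9% (background 45%), and in 17 on day 14, or 12.6% (background 30.5%). Both days together held for 6.67% of members (background 25.2%). Since the rule sets R on these days, nothing is read from these shares. R was below 1 on both days in 42 members and at or above 1 on both in 48.

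The 9 members with a gain on day 4 and a lower border zone value on both later days had median R of 1.97, 0.564 and 0.669. Their sham level of day 4 was 0.546 in the median, against 0.373 in the 88 members near 1 on both later days. At chr18:14360251-14361750, the tags were 140 sham against 257 border zone on day 4, 67 against 22 on day 7, then 215 against 118 on day 14, with R of 2.15, 0.476 and 0.742. At chr13:23807251-23809250 they were 149 and 266, 54 and 21, and 413 and 186, with R of 1.99, 0.564 and 0.609. At both loci R was above 1 on day 4 and below 1 on the later days.

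**Figure D4:**
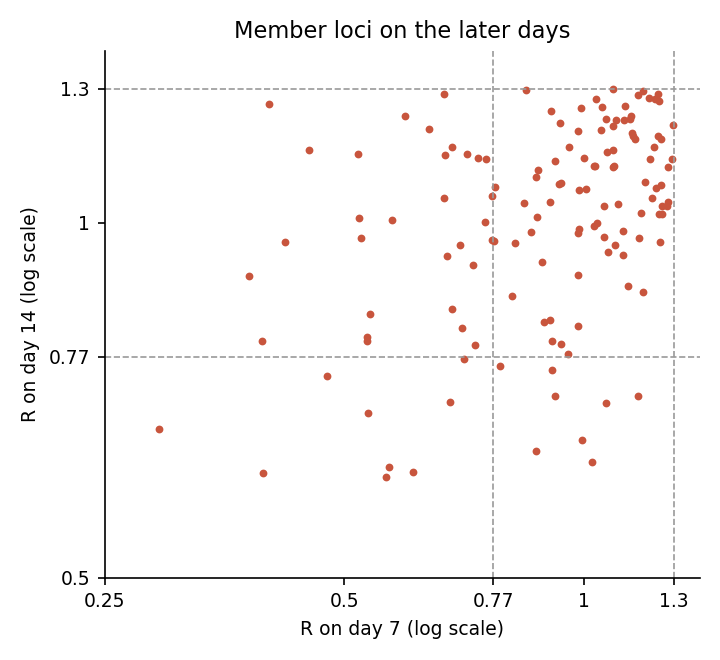
R on day 7 against R on day 14 for the 135 members, on log scales, with dashed lines at 0.77 (1 over 1.3) and at the limit of 1.3. The 88 members between the lines on both days fill the upper right, and 9 lie below the line on both days.

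Members lay far apart. They were found on 20 chromosomes, with 14 on chromosome 4, 11 on chromosome 5, 10 on each of chromosomes 6, 7 and 8, and 1 on the X. As a share of the loci listed on 3 days this was 1.16% (0.634% to 1.94%) on chromosome 4 and 0.333% (0.108% to 0.776%) on chromosome 2, the extremes among the autosomes, with exact binomial intervals that overlap. The median gap to the next member on a chromosome was 9728 kb. With members chained where at most 500 kb apart, 117 stood alone, 6 groups held 2 members and 2 groups held 3. Both groups of 3 were singled out after their values were seen.

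On chromosome 13, 3 members lie within 489.5 kb, and all 3 had R below 1 on both later days. The 14 kb member chr13:11631751-11645750 is described above. Its neighbour 10 kb away, chr13:11655751-11660750, held 242 sham against 462 border zone tags on day 4, 57 against 21 on day 7, then 172 against 101 on day 14, with R of 2.18 (1.87 to 2.56), 0.534 and 0.793. The lists covered 5 kb of this neighbour on day 4, 1.5 kb on day 7 and 1 kb on day 14, so its R also compares partly different DNA. The far one, chr13:12119251-12121250, held 28 against 46, 116 against 27, then 501 against 278 tags, with R of 1.7502 (1.07 to 2.91), 0.293 and 0.669. It is the member with the lowest R on day 7, and it sits just on the day 4 threshold.

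The stretch of chromosome 13 between them holds 28 other loci listed on all 3 days, which the rule did not choose. On day 4 their R ran from 0.814 to 1.62, with a median of 1.21 against 0.939 over all other loci. R was above 1 on day 4 in 22 of the 28, against 37.9% of all other loci, and reached the day 4 threshold in 0. On day 7 their median was 0.483, against 0.823 over all other loci, and the highest value was 0.928. On day 14 the median was 0.624, against 0.903, with values from 0.390 to 1.95, so that at least 1 of them was higher on day 14 than any was on day 4. The members here were chosen for a high R on day 4. In the stretch as a whole, R was above 1 on day 4 at most loci and below 1 on day 7 at all of them.

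On chromosome 8, 3 members lie within 79.5 kb. The loci chr8:15063751-15066750, chr8:15121751-15126750 and chr8:15137251-15143250 had R of 2.0, 1.99 and 2.04 on day 4, nearly the same value. They held 88 and 156, 302 and 534, and 472 and 851 sham and border zone tags on that day. On day 7 their R was 0.725, 1.03 and 1.0, and on day 14 it was 0.922, 1.12 and 1.13. The lists covered 2, 5 and 6 kb of them on day 4, 1.5, 2.5 and 2.5 kb on day 7, then 1, 1 and 1.5 kb on day 14. Between days, R of the 3 members thus compares partly different DNA. The 2 other shared loci between them had R of 1.68 and 1.74 on day 4, just below the threshold.

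Over all members together, the loci around a member had R close to that of loci elsewhere. Within 50 kb of a member lay 403 other loci listed on all 3 days, with median R of 0.979, 0.819 and 0.951 on days 4, 7 and 14. All 19598 loci outside the member set had 0.939, 0.823 and 0.903. R reached the day 4 threshold in 14 of the 403, or 3.47%, against 3.56% of all other loci. Of the 118 members with such a neighbour, 109 were above every one of them on day 4. Members were chosen for a high R on that day, which few loci reach, so nothing is read from this count.

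The nearest loci had a slightly higher R than other loci, and this held on all 3 days. R was above 1 on day 4 in 33 of the 52 loci within 5 kb, in 65 of the 130 between 5 and 20 kb, and in 90 of the 221 between 20 and 50 kb. This is 63.5%, 50% and 40.7%, against 37.9% of all other loci. The median R within 5 kb was 1.03, which is far below the 2.04 of the members. Neighbouring loci share libraries and are not independent, and no test was made.

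**Figure D5:**
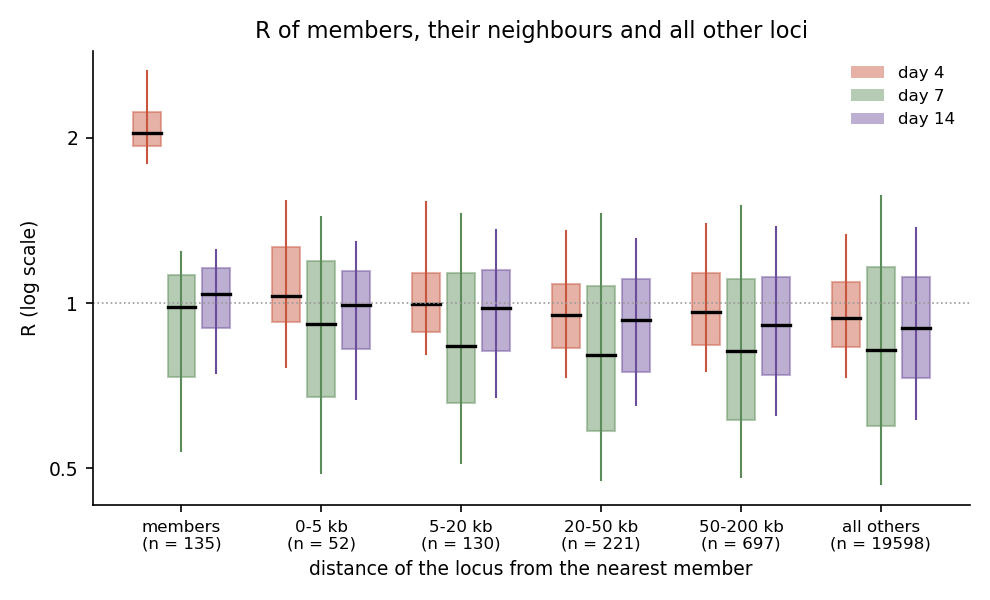
R on days 4, 7 and 14 (log scale) of the 135 members, of other loci by their distance from the nearest member, and of all 19598 other loci. Black bars are medians, boxes the middle quartiles and lines the 10th to 90th percentile; on day 4 the median is 2.04 in members and 1.03 in loci within 5 kb.

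The members' median width of 1500 bp equals that of all loci listed on 3 days. A width of 1000 bp was found in 44 members, or 32.6%, against 31.6% of all, and one of 1500 bp in 45, or 33.3%, against 36.0%. The members held more loci of 2000 bp, 32 or 23.7% against 14.7%, and fewer above that, 14 or 10.4% against 17.6%. At least 5 kb was reached by 4 members, which is 2.96%, against 1.71% of all. More than 1 region on day 4 was joined in 31 members, or 23%, against 7.2% of all, and in each of the 31 a called and an uncalled region of that day were joined. In 50 members the listed bases were identical on all 3 days, and these had median R of 2.06, 1.02 and 1.03. In 13 members under 50% of the day 4 bases were listed on a later day, and there R compares mostly different DNA.

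The members were shallow on day 4 against loci in general, though not against the other loci gained on that day. By the sum of sham and border zone tags on day 4, 64 of the 135 lay among the lowest 25% of loci and 9 among the highest 25%. By the tags of days 7 and 14, 48 lay among the lowest 25% and 6 among the highest 25%. The median member held 63 sham and 115 border zone tags on day 4, against 159 and 144 over all loci listed on 3 days. In whole tags this compares 65 and 44 with 97 and 56 on day 7, and 302 and 206 with 369 and 247 on day 14. The other 697 loci gained on day 4 had medians of 36 sham and 77 border zone tags on that day, fewer than the members. A low sham count on day 4 is also what a high R asks for.

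The thresholds run through a continuous range. Just inside the day 4 threshold, chr13:12119251-12121250, chr7:112623251-112624750 and chr10:69291251-69292750 had R of 1.7502, 1.7511 and 1.7575, and just outside, chr14:46096751-46099750, chr6:135348251-135349750 and chr8:11448751-11453250 had 1.7488, 1.7463 and 1.7430. Within a factor of 1.1 of that threshold lay 33 members and 66 loci outside. On day 7 the nearest members had R of 1.296, 1.291 and 1.278 and the nearest loci outside 1.302, 1.302 and 1.305. On day 14 these were 1.299, 1.297 and 1.295 inside and 1.304, 1.304 and 1.306 outside.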

How the data were processed

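ATAC-seq was analysed in 6 libraries, 1 sham and 1 border zone library per day, through 9 region lists. The aligner was Bowtie2 on day 4 and BWA later, with mm9 as the build and bedtools throughout, per the submitters' processing notes. Not given in the sources used here: tool versions, the region caller and how duplicates and the transposase offset were handled. Sham tags are deposited counts, per the file headers. Border zone tags are a deposited signal that the authors had scaled towards the sham library; the day 4 list without called differences holds unscaled counts. The scaling was read from the values: 97.3% of 85106 scaled values were a whole number times 1 factor of the day, within a relative tolerance of 0.001%. Day 4 had the factors 1.03 and 1.10, day 7 1.17 and 1.35, and day 14 1.18 and 1.37. Another 2280 were sums of such terms and 16 were only approximate, none of them in a member.

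R was computed from the listed values, with thresholds of 1.75 on day 4 and 1.3 on days 7 and 14 and daily medians of 0.939, 0.929 and 1.01. On day 4 only called regions are scaled, and the day's median was 0.939 with listed and with whole tags. R on day 4 is therefore raised by the scaling in the 130 members that held a called region. With whole tags the members' median R on day 4 was 1.94, and R at rank 1 was 4.14. Tags printed for the border zone, intervals and levels use the recovered whole tags. Python 3.11, pandas 2.3.3 and scipy 1.17.1 were used where versions matter. The code was tested on simulated lists, where members were scored only at loci rich in tags with a gain above the members' median. That test does not show how well the rule works at loci with as few tags as most members. Named are the 10 members with the highest lower end of R on day 4, the 5 with the most tags and 3 loci on each side of each threshold; 2 of the 9 members lower on both later days and the groups of 3 were chosen after their values were seen. The members and lists were chosen with earlier results of these data known. No genome or annotation of mm9 was used, so genes, gene starts, motifs and sequences are not reported here. There were 0 columns of unmapped samples.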

Additional observations from a re-analysis of the deposited data

How the results depend on the processing

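The 135 members became 80 with R of at least 2 on day 4, 255 with no condition on day 7 and 8 with every interval clear of its threshold. They became 735 where the authors' lists defined the gain, of which 125 were members, and 50 with identical bases on all 3 days. The other settings gave 91 to 190 loci. Whole border zone tags gave 121, with 117 members, and the median over loci listed on all 3 days gave 91, with 76. Under the latter, 9 of the 15 members named by interval or tags left the set, and chr9:44287251-44289250 had R of 1.42 on both later days. Joining at 250 bp changed no member. The median R on day 4 was 1.94 with whole tags and 2.05 to 2.09 under the other settings tried for it. On day 7 the median R was 0.939 to 1.02 and on day 14 1.03 to 1.06 under these settings. The median width was 1000 bp without joining, 2000 bp with clear intervals and 1000 bp with identical bases. With the library mean over the loci in place of the median, the levels were 0.326 in sham against 0.672 in the border zone on day 4, 0.581 against 0.615 on day 7, then 0.669 against 0.715 on day 14. With identical bases they were 0.7125 in sham on day 7, and 0.736 and 0.825 in sham and border zone on day 14. The sham level of day 4 was the lowest of 6 in 103 members with the library mean. The joining at 1000 bp, the identical bases and the settings on levels were chosen after seeing the data. Shares near gene starts, motifs and gene lists were not run, for want of positions in mm9. No paired analysis was possible because each condition has 1 library per day and the results come from no test. Low tag counts on day 4 limit R of single members.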
